A study of Rattus norvegicus with 15 samples.

Results

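Heat shock proteins and their co-chaperones were followed through RNA-seq libraries of rat lung from 3 groups of 5 libraries each. The genes were taken by name: symbols of the HSP90, HSP70, small heat shock protein and chaperonin families, J proteins of classes A, B and C, the cytosolic chaperonin CCT, the BAG proteins 1 to 6, and Hsf1, Hsf2 and Tcp1. Of 22250 genes in the deposited table, 92 matched these names, and the 81 that reached an FPKM (fragments scaled to transcript length and library total, a level corrected for gene length) of at least 1 in at least 5 of the 15 libraries were analysed. COPD lungs came from rats of a chronic obstructive pulmonary disease model, given LPS by the trachea and smoke. WDD lungs came from rats given the same LPS and smoke and, by stomach tube, Wendan Decoction, a herbal formula. Control lungs came from untreated normal rats. The rats of all 3 groups carried the genotype WT, and the labels give no strain, sex, age, dose or duration. Whether each library is a separate rat is not stated, so the p-values measure the spread between libraries, which may be in part technical.

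Heat shock proteins bind unfolded or partly folded proteins and release them in cycles driven by ATP. HSP70 does so with a J protein, which delivers the client and triggers ATP hydrolysis, and with a nucleotide exchange factor of the BAG, HSP110 or HSPBP1 type, which lets the client go. HSP90 finishes a selected set of clients, CCT and the mitochondrial pair HSP60 and HSP10 enclose theirs in a chamber, and small heat shock proteins hold clients without using ATP. Transcription of the cytosolic genes is raised through heat shock factors at heat shock elements, and that of the endoplasmic reticulum members through the unfolded protein response at ER stress elements.

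Few of the members' promoters carry either element, and the stretches that do are shown because the endoplasmic reticulum trio and the mitochondrial pair recur below. RefSeq promoters of the build GRCr8, from 250 bases before to 50 after the start of the gene, matched 65 of the members' symbols, with 66 promoters. The ER stress element was searched as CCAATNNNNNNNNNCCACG on both strands and was present in 22 of 33469 promoters (0.0657%). It was present in 3 of the 66 member promoters, those of Hspa5, Hsp90b1 and Dnajc3, whose products all act in the endoplasmic reticulum lumen. For Hsp90b1 2 matches were counted, and the first is shown. Each stretch is written 5′ to 3′ on the strand of the gene, with the element in capitals.
Hspa5, chr3:38452967-38452996, plus strand: agttcaCCAATCGGAGGCCTCCACGacggg
Hsp90b1, chr7:23012446-23012475, minus strand: acaaacCCAATCGAAAGGAGCCACGcttcg
Dnajc3, chr15:102432528-102432557, plus strand: ccaaagCCAATCAGCGCCAACCACGaccca

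A heat shock element of 3 units was searched on both strands as GAA, TTC and GAA with any 2 bases between neighbours and was present in 267 of the 33469 promoters (0.798%). It was found in 6 of the 66 member promoters, those of Hspa8, Hsph1, Dnaja1, Cct4, Hspd1 and Hspe1. For Hspa8 2 matches were counted, and the first is shown. Hspd1 and Hspe1 are neighbouring genes read in opposite directions, so that the same bases appear for each on its own strand, where 2 matches overlap. In Dnaja1 and Cct4 the match lies after the annotated start. A match describes the letters only, and a promoter without one lacks only these letters in this window.
Hspa8, chr8:50080292-50080321, plus strand: ggcgagcgtGAAAGTTCCAGAAcgctgcgg
Hsph1, chr12:10427323-10427352, plus strand: tgccgcagaTTCTGGAAAGTTCtcctcagt
Dnaja1, chr5:60638404-60638433, plus strand: ggccgggcgGAACTTTCCAGAAcgctcggt
Cct4, chr14:101193073-101193102, plus strand: ggcgtcgctTTCTGGAAGGTTCgtggaggc
Hspe1, chr9:64084256-64084285, plus strand: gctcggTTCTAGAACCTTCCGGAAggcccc
Hspd1, chr9:64084256-64084285, minus strand: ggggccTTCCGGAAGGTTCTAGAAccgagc

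The libraries differed as wholes in ways that touch every level below. Depth, read from the smallest FPKM steps, was 0.877 to 1.11 times that of 1 control library. The 13 mitochondrially encoded genes took 44.9 ± 12.4% of the FPKM sum in COPD, 21.7 ± 2.9% in WDD and 8.11 ± 1.94% in control libraries (SD, n = 5 each). The median tested gene was at 6.42, 9.99 and 12.7 FPKM in COPD, WDD and control libraries, and log2 fold changes over all tested genes, on the scale of log2(FPKM + 1), had a median of -0.81 in COPD against control as deposited and -0.05 after median-of-ratios scaling, which sets the typical gene level between libraries. Both sets of values are given, and a direction is stated without qualification only where both passed the test. Transcript length moved with the groups too: of 28 long housekeeping transcripts tested 28 were lower in COPD than in control lungs as deposited (median -1.57), while of 27 short ones 12 were higher (median 0.60). In WDD against control the medians were -0.86 for the long and 0.90 for the short ones, with 25 lower and 27 higher, and in WDD against COPD they were 0.59 and 0.33. After scaling 21 long ones were lower and 1 higher (median -0.86) and 27 short ones higher (median 1.44) in COPD against control. In WDD against control 20 long ones were lower and 27 short ones higher (medians -0.60 and 1.15). Scaled medians in WDD against COPD were 0.08 and -0.31. Among all genes 66.4% were lower and 8.23% higher in COPD and 31.0% and 6.35% in WDD against control as deposited. After scaling these shares were 32.6% and 30.0%, and 17.2% and 15.7%. The part of length in the results on single members was not tested. In whole lung, fewer cells of a type and less RNA per cell cannot be told apart.

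COPD library 5 stood apart from the other COPD libraries for these genes. It was the highest of the 5 COPD libraries in 33 of the 81 members (40.7%, against 26.3% of all genes tested) and the lowest in 21 (25.9%, against 36.1%). Dnajb6, a class B J protein that keeps aggregation-prone proteins soluble, was at 79.6 FPKM there and at 25.0 to 28.4 FPKM in COPD libraries 1 to 4. Hsph1, the HSP110 exchange factor, was at 43.6 FPKM there against 12.9 to 16.2 FPKM, and Dnaja1, the main class A partner of cytosolic HSP70, at 218 against 86.2 to 121 FPKM. Hspb1, the broadly expressed small heat shock protein HSP27, went the other way, with 125 FPKM in COPD library 5 and 276 to 581 FPKM in the other 4. COPD library 1 was the lowest COPD library in 31 members, or 38.3%, against 38.4% of all genes tested. By deposited values without COPD library 5, 5 members (6.17%) were higher and 53 (65.4%) lower in COPD than in control lungs, against 10.1% and 67.5% of all genes. Then 47 members (58.0%) were higher in WDD than in COPD lungs, against 58.4% of all genes. Without libraries 1 and 5 together these counts were 8, 48 and 40, against 12.3%, 64.0% and 52.2% of all genes.

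**Figure D1:**
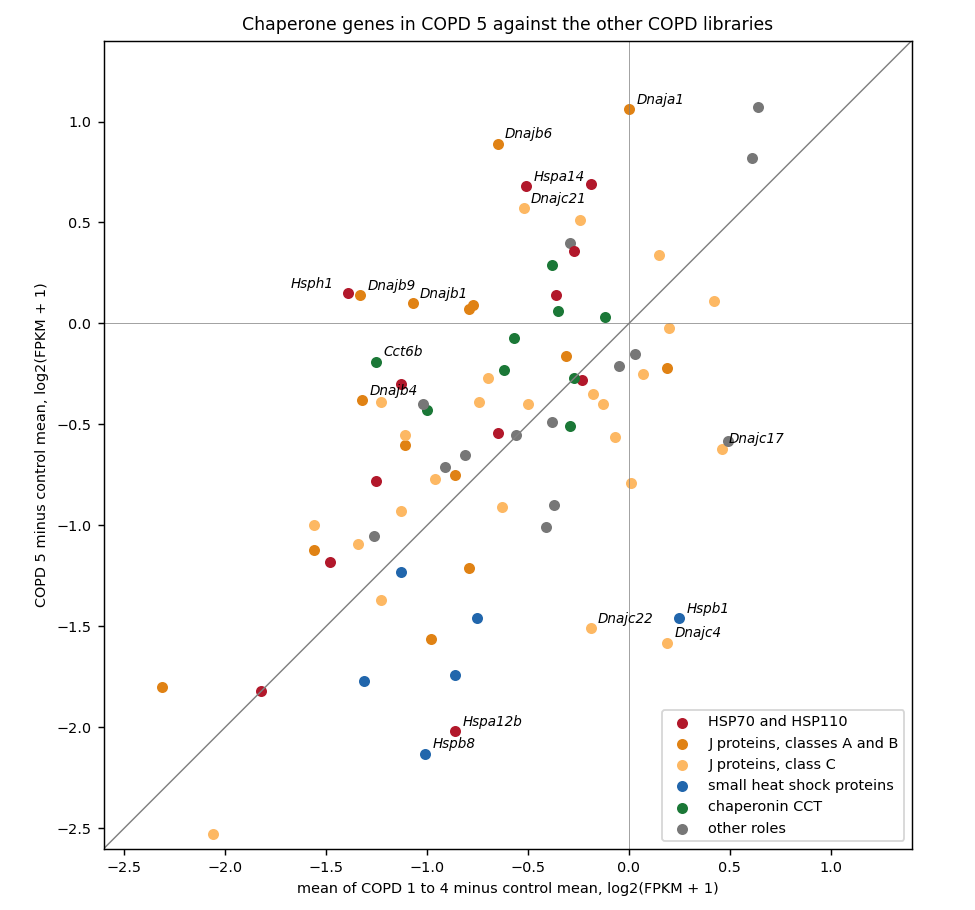
Each point is 1 of the 81 genes, with the mean of COPD libraries 1 to 4 minus the control mean on the x axis and COPD library 5 minus the control mean on the y axis, both as log2(FPKM + 1), coloured by role. The line marks equal values. Dnajb6, Hsph1, Dnajb9, Hspa14 and Dnaja1 lie far above it, and Hspb1, Hspb8, Hspa12b and Dnajc4 far below.

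In COPD against control lungs most chaperone transcripts fell as deposited, but less than the typical gene. Of the 81 members 48 were lower, 3 were higher and 30 did not pass, and their median log2 fold change was -0.56 against -0.81 for all genes. Of all genes tested 66.4% were called lower and 8.23% higher in this comparison. After scaling, 35 members were higher and 11 lower, with a median of 0.26 against -0.05, beside 30.0% and 32.6% of all genes. Higher by both sets of values were Bag1, Hspe1 and Dnajc2. Lower by both were Dnaja4, Dnajc16, Hspa12a, Dnajb13, Dnajc10, Hspa4l, Hspb11, Dnajc13, Dnajc28, Bag4 and Hspa2. Bag6, Cct4, Cct5, Cct8 and Hsf1 were called lower as deposited and higher after scaling.

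In WDD against COPD lungs 39 members were higher, 0 were lower and 42 did not pass as deposited, with a median of 0.43 against 0.54 for all genes, beside 57.1% of all genes called higher and 6.63% lower. This count of 0 from limma, and each count of 0 given below for a role or a list of folding genes, was also 0 at an unadjusted p under 0.05. After scaling, 9 were higher and 21 lower, with a median of -0.12 against 0.03, beside 23.3% and 21.4% of all genes. Higher by both were the small heat shock proteins Hspb2, Hspb6 and Hspb8, with Hspb11, Dnaja4, Dnajb13, Hspa2, Hspa12a and Cct6b. The COPD libraries serve in both comparisons, so that a gene low in COPD lungs has opposite signs in them through the shared libraries.

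In WDD against control lungs most members did not pass. As deposited, 5 were higher, 17 lower and 59 did not pass, with a median of -0.04 against -0.23 for all genes, beside 6.35% and 31.0% of all genes called higher and lower. The count of higher members was 3 without WDD library 4, WDD library 5 or control library 2. After scaling 15 were higher and 9 lower, with a median of 0.20 against 0.00, beside 15.7% and 17.2%. Bag1, Hspe1, Dnajc2, Dnajc8 and Dnajc15 were higher by both. Dnajc16, Dnajc13, Dnaja4, Bag4, Hspa4l, Dnajc28, Hspa9, Dnajc5 and Dnajb14 were lower by both. As a share of the FPKM sum without the mitochondrially encoded genes, the members together made up 0.775 to 0.886% in COPD, 0.765 to 0.802% in WDD and 0.831 to 0.974% in control libraries.

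**Figure D2:**
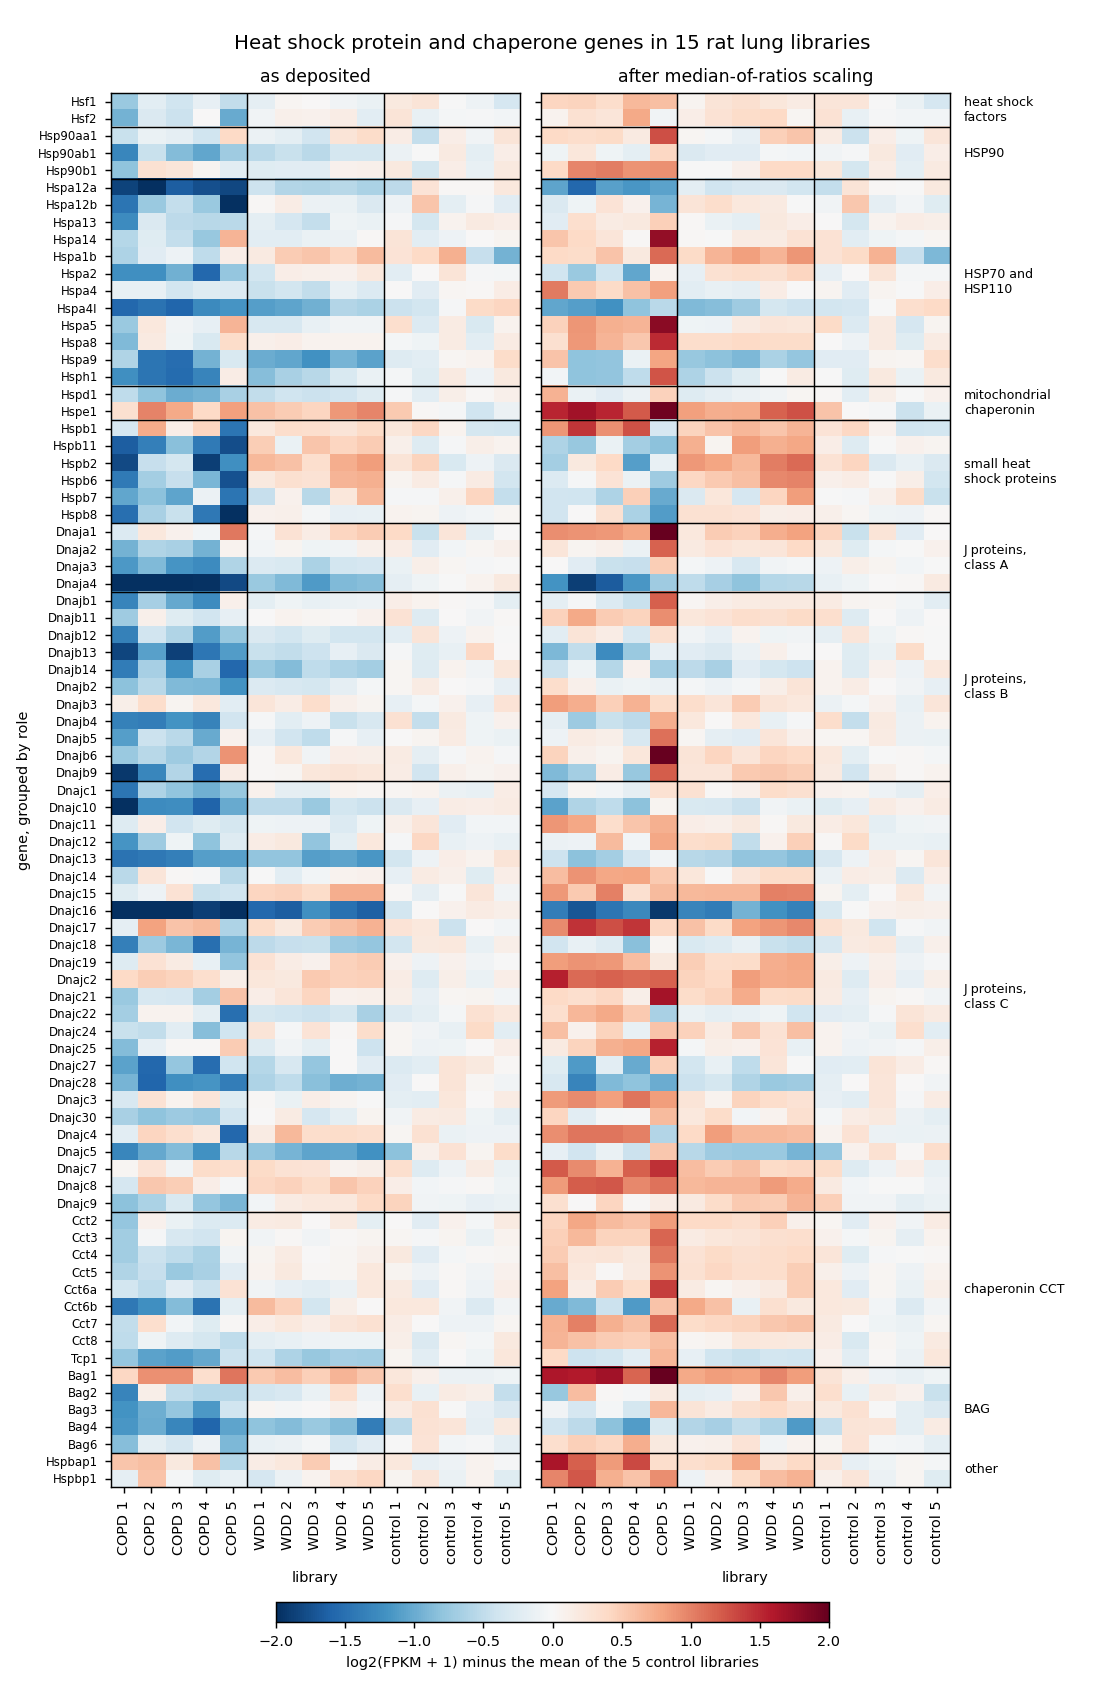
Rows are the 81 genes grouped by role and columns the 15 libraries, with values as deposited at left and after median-of-ratios scaling at right. Colour is log2(FPKM + 1) minus the mean of the 5 control libraries, red above and blue below. Dnaja4 and Dnajc16 are blue and Bag1 and Hspe1 red in the COPD columns of both panels, while most other rows turn from blue at left to pale or red at right.

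**Figure D3:**
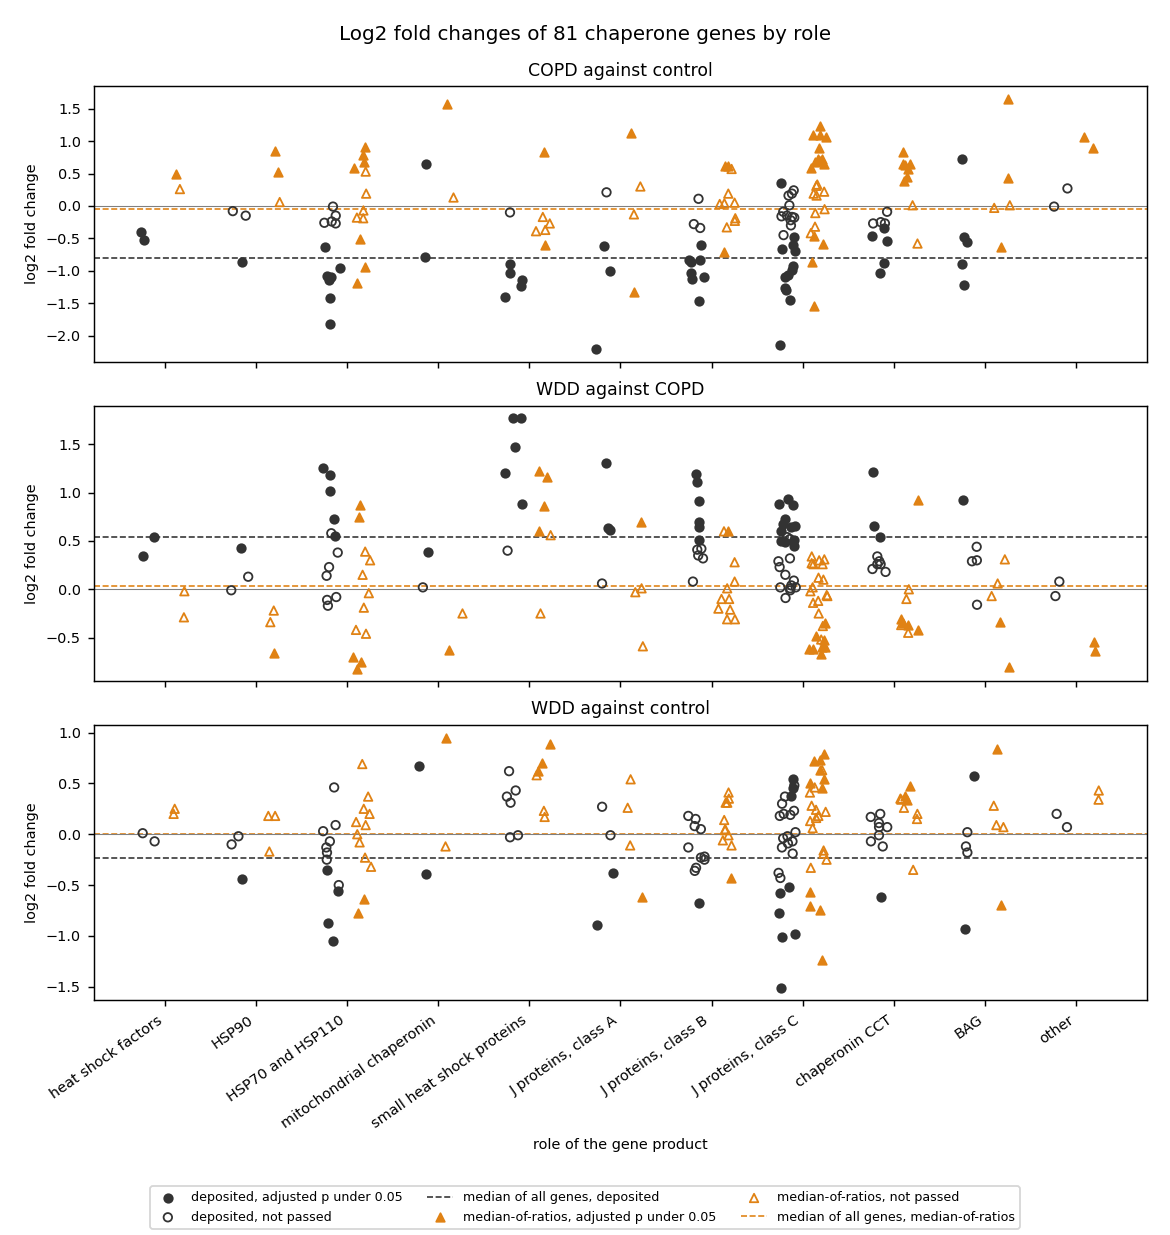
Points are log2 fold changes on the log2(FPKM + 1) scale of the 81 genes by role, in 3 panels for the 3 comparisons. Circles are deposited values and triangles scaled values, filled where the adjusted p was under 0.05, and dashed lines mark the median of all genes tested, which is -0.81 as deposited and -0.05 after scaling in COPD against control.

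Both heat shock factors tested followed the scaling. Hsf1, the main inducer of heat shock genes, was at 21.9 ± 3.53 FPKM in COPD and 29.2 ± 4.89 FPKM in control libraries, a log2 fold change of -0.40 ± 0.14 (SE, adjusted p = 0.016) as deposited and 0.49 ± 0.12 (adjusted p = 0.00236) after scaling. Hsf2, its developmental relative, was at 5.18 ± 1.84 FPKM in COPD and 7.65 ± 0.959 FPKM in control libraries, which passed as deposited (-0.53 ± 0.18, adjusted p = 0.0142) but not after scaling (0.26 ± 0.15, adjusted p = 0.14). Without COPD libraries 1 and 5 neither passed as deposited, at -0.26 for Hsf1 and -0.23 for Hsf2. In WDD libraries Hsf1 was at 27.6 ± 1.80 and Hsf2 at 7.69 ± 0.879 FPKM, and neither passed against control lungs by either set of values. Against COPD lungs both were higher in WDD as deposited (0.34 ± 0.14, adjusted p = 0.0457, and 0.54 ± 0.18, adjusted p = 0.0164). Neither passed there after scaling (-0.29 ± 0.12 and -0.02 ± 0.15). The deposited call for Hsf1 was lost without COPD library 1, 3 or 5 or any 1 WDD library (adjusted p = 0.0545 to 0.112).

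The 3 HSP90 genes were not alike. Hsp90ab1, the constitutive cytosolic form and one of the most abundant members, was at 255, 462, 346, 308 and 386 FPKM in COPD libraries 1 to 5, at 435, 463, 433, 496 and 496 FPKM in WDD libraries and at 584, 625, 714, 553 and 695 FPKM in control libraries. Neither the COPD nor the WDD libraries overlapped with the controls. As deposited the log2 fold change was -0.87 ± 0.16 in COPD against control (adjusted p = 9.31e-05) and -0.44 ± 0.16 in WDD against control (adjusted p = 0.0337), and after scaling it was 0.06 ± 0.14 and -0.17 ± 0.14, neither of which passed. The call in WDD against control was lost without any 1 WDD library or control library 2, 3 or 5 (adjusted p = 0.0506 to 0.087). Hsp90aa1, the inducible cytosolic form, was low at 2.43 ± 0.881 FPKM in COPD, 2.75 ± 0.83 in WDD and 2.78 ± 0.696 FPKM in control libraries, and passed only in COPD against control after scaling (0.52 ± 0.21, adjusted p = 0.0452). That call was lost without COPD libraries 1 and 5 (0.30, adjusted p = 0.175). No counting intervals are given, so whether the low FPKM of Hsp90aa1 covers its whole transcript is not known.

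The endoplasmic reticulum trio with the ER stress element had deposited group means within about the spread of the libraries. Hspa5, which encodes BiP, the HSP70 of that compartment and the protein that keeps the sensors of the unfolded protein response inactive, was at 98.9, 193, 159.5, 149 and 269 FPKM in COPD libraries 1 to 5, at 133, 133, 151, 159.7 and 159 FPKM in WDD libraries and at 212, 138, 187, 135 and 175 FPKM in control libraries. The groups overlapped, and COPD libraries 1 and 5 were its lowest and highest values. Hsp90b1, the endoplasmic reticulum HSP90 known as GRP94, was at 169 ± 46.9, 162 ± 20.9 and 175 ± 28.2 FPKM in COPD, WDD and control libraries, and Dnajc3, a J protein of the same compartment, at 27.9 ± 5.48, 27.7 ± 1.96 and 27.5 ± 3.94 FPKM. In COPD against control the log2 fold changes as deposited were -0.01 ± 0.21 for Hspa5, -0.08 ± 0.19 for Hsp90b1 and 0.01 ± 0.14 for Dnajc3, and none passed.

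After scaling, all 3 were higher in COPD than in control lungs: Hspa5 by 0.91 ± 0.22 (adjusted p = 0.00178), Hsp90b1 by 0.84 ± 0.15 (adjusted p = 0.000218) and Dnajc3 by 0.90 ± 0.11 (adjusted p = 5.05e-06). They were lower in WDD than in COPD lungs by that scale, at -0.82 ± 0.22, -0.66 ± 0.15 and -0.62 ± 0.11 (adjusted p = 0.00632, 0.00276 and 0.000385). Without COPD libraries 1 and 5 these scaled values were 0.76, 0.97 and 0.94 in COPD against control and -0.67, -0.79 and -0.66 in WDD against COPD, and all passed. Against control lungs the WDD libraries did not pass for any of the 3 by either set of values.

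Dnajb9, the J protein that holds the stress sensor IRE1 in check through BiP, did not move with the trio. It was at 3.70, 6.25, 11, 5.26 and 18.8 FPKM in COPD libraries 1 to 5, at 17.2 to 20.4 FPKM in WDD libraries and at 12.7 to 18.8 FPKM in control libraries, so that only COPD library 5 reached the other groups. As deposited it was lower in COPD than in control lungs (-1.04 ± 0.28, adjusted p = 0.00339) and higher in WDD than in COPD lungs (1.19 ± 0.28, adjusted p = 0.00181), and after scaling neither passed (-0.19 ± 0.31 and 0.60 ± 0.31). Without COPD library 5 the deposited values were -1.33 ± 0.20 and 1.48 ± 0.20. The ratio of Hspa5 to Dnajb9 FPKM within a library, which no scaling of libraries changes, was 14.3 to 30.8 in COPD, 7.59 to 8.03 in WDD and 7.61 to 11.3 in control libraries, and the COPD libraries overlapped with neither. This and the other ratios were chosen after the values were seen and are a description.

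Dnajb11, the BiP partner ERdj3, was at 28.6 ± 5.90 FPKM in COPD, 35.5 ± 0.935 in WDD and 34.6 ± 4.96 FPKM in control libraries, and passed only after scaling in COPD against control (0.62 ± 0.12, adjusted p = 0.000452). As deposited it was lower there without COPD library 2 (-0.37, adjusted p = 0.0207) or control library 2 (-0.34, adjusted p just under the threshold). Dnajc10, the disulfide-reducing J protein of the endoplasmic reticulum, was instead lower in COPD lungs by both sets of values, at 4.85, 9.98, 10.1, 7.61 and 12 FPKM in COPD libraries 1 to 5 against 20.5, 22.4, 27.9, 27.5 and 28.4 FPKM in control libraries (-1.45 ± 0.19 as deposited, adjusted p = 2.92e-06, and -0.59 ± 0.17 after scaling, adjusted p = 0.00802). The groups did not overlap. WDD libraries lay between them at 14.6 to 19.2 FPKM.

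The list of sensors and factors of the unfolded protein response was called lower about as often as all genes. Of 14 tested, 3 were higher and 10 lower in COPD than in control lungs as deposited, beside 8.23% and 66.4% of all genes, and their median of -0.81 equals that of all genes. After scaling 4 were higher and 4 lower, with a median of 0.05 against -0.05. Ern1, which encodes IRE1, was at 3.13 ± 0.731 FPKM in COPD, 4.78 ± 0.279 in WDD and 10.8 ± 1.77 FPKM in control libraries, lower in COPD than in control lungs by both sets of values (-1.52 ± 0.15 and -0.75 ± 0.14). Eif2ak3, which encodes PERK, was lower likewise (-1.40 ± 0.19 and -0.62 ± 0.15), as was Mbtps1, the protease that activates ATF6 (-1.55 ± 0.19 and -0.66 ± 0.14). Atf6 itself was lower as deposited (-1.14 ± 0.31) but did not pass after scaling (-0.33 ± 0.33). The 3 higher as deposited were Atf4 and Ddit3, the transcription factors ATF4 and CHOP of the integrated stress response, and Ppp1r15a, the GADD34 phosphatase subunit that ends it. Their deposited log2 fold changes were 0.94 ± 0.22, 0.91 ± 0.18 and 0.78 ± 0.23, and after scaling they were 1.87 ± 0.23, 1.81 ± 0.16 and 1.70 ± 0.24, all passed. These 3 were named after their values were seen.

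Of 19 other folding genes of the endoplasmic reticulum tested, 1 was higher and 15 lower in COPD than in control lungs as deposited. For all genes these shares were 8.23% and 66.4%, and the list median of -0.86 stood against -0.81. After scaling 5 were higher and 6 lower, beside 30.0% and 32.6% of all genes. Herpud1, a member of the degradation machinery, was at 24.1 ± 8.41 FPKM in COPD, 69.5 ± 4.0 in WDD and 91.2 ± 14.7 FPKM in control libraries, lower in COPD than in control lungs (-1.93 ± 0.20 as deposited and -1.03 ± 0.20 after scaling) and higher in WDD than in COPD lungs (1.56 ± 0.20 and 0.93 ± 0.20). Sel1l and Derl2 of the same machinery and the oxidase Ero1a were also lower in COPD lungs by both sets of values, at -1.62 ± 0.18, -1.20 ± 0.13 and -1.34 ± 0.20 as deposited. Creld2, Calr, Pdia3, Manf and Syvn1, named after their values were seen, were the 5 higher after scaling. Creld2, a disulfide isomerase of the endoplasmic reticulum, was higher by both sets of values, at 53.5 ± 18.5 FPKM in COPD and 35.6 ± 6.41 FPKM in control libraries (0.53 ± 0.21, adjusted p = 0.0315, and 1.43 ± 0.17, adjusted p = 3.86e-06). The chaperone calreticulin (Calr), the isomerase Pdia3 and the secreted factor Manf passed as higher only after scaling, at 0.74 ± 0.15, 0.65 ± 0.13 and 1.36 ± 0.27. The ubiquitin ligase Syvn1 was lower as deposited (-0.52 ± 0.15) and higher after scaling (0.35 ± 0.12). As for WDD against COPD, 7 of the 14 sensors and factors were higher and 2 lower as deposited (1 and 4 after scaling). For the 19 folding genes the counts were 10 and 0 (1 and 5 after scaling). The shares of all genes were 57.1% and 6.63% (23.3% and 21.4% after scaling).

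Neither of the cytosolic HSP70 genes Hspa8 and Hspa1b passed in COPD against control as deposited (-0.15 ± 0.19 and -0.26 ± 0.26). Hspa8, the constitutive HSC70 and the most abundant member on the FPKM scale, was at 349.6, 737, 609, 523 and 833 FPKM in COPD libraries 1 to 5, at 678 to 707 FPKM in WDD libraries and at 559.5 to 729 FPKM in control libraries. The groups overlapped, and it passed only after scaling in COPD against control (0.78 ± 0.18, adjusted p = 0.00126). Hspa1b, a stress-inducible HSP70, was at 5.72 ± 1.43 FPKM in COPD, 9.97 ± 1.26 in WDD and 7.60 ± 3.60 FPKM in control libraries. It was higher in WDD than in COPD lungs as deposited, without overlap (0.73 ± 0.26, adjusted p = 0.0218), but not after scaling (0.15 ± 0.26), and the call was lost without COPD library 1 (0.64, adjusted p = 0.0572). Its near-identical copy Hspa1a has no row in the table, so how reads were divided between them is uncertain.

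Hspa12a and Hspa2 were lower in COPD lungs by both sets of values and higher in WDD than in COPD lungs. Hspa12a, a divergent HSP70 relative, was at 0.956, 0.719, 1.25, 1.09 and 0.997 FPKM in COPD libraries 1 to 5, at 4.31, 3.67, 3.65, 3.78 and 3.54 FPKM in WDD libraries and at 3.87, 7.51, 6.13, 6.17 and 7.15 FPKM in control libraries. All COPD libraries lay below all others, with log2 fold changes of -1.82 ± 0.15 against control (adjusted p = 3.20e-08) and 1.26 ± 0.15 for WDD against COPD (adjusted p = 4.73e-06). After scaling these were -1.19 ± 0.15 and 0.87 ± 0.15. Hspa12a reached 1 FPKM in 2 COPD, 5 WDD and 5 control libraries, so its low COPD values are in part set by the filter. Hspa2, an HSP70 known for its part in male germ cells, was at 1.38 ± 0.486 FPKM in COPD, 4.37 ± 0.767 in WDD and 4.23 ± 0.622 FPKM in control libraries, with -1.15 ± 0.16 in COPD against control and 1.18 ± 0.16 in WDD against COPD as deposited and -0.51 ± 0.18 and 0.75 ± 0.18 after scaling. At such low levels the pseudocount of 1 makes the fold change on the log2(FPKM + 1) scale smaller than the ratio of the FPKM.

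Of the HSP110 exchange factors, Hspa4l was low. It was at 0.29 to 0.715 FPKM in COPD, 0.818 to 1.60 in WDD and 1.88 to 4.25 FPKM in control libraries, with no overlap between any pair of groups. It reached 1 FPKM in 0 COPD, 2 WDD and 5 control libraries, so that it entered the test through the controls and its lower values elsewhere are in part set by the filter. Its log2 fold changes were -1.42 ± 0.19 as deposited and -0.94 ± 0.19 after scaling in COPD against control, and -0.87 ± 0.19 and -0.64 ± 0.19 in WDD against control. Hspa4 was at 34.9 ± 2.28 FPKM in COPD, 32.3 ± 3.23 in WDD and 41.4 ± 3.95 FPKM in control libraries, which did not pass in COPD against control as deposited (-0.24 ± 0.11) and passed after scaling (0.67 ± 0.13, adjusted p = 0.000333).

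Hsph1 depended on COPD library 5. It was at 16.2, 13.6, 12.9, 15.1 and 43.6 FPKM in COPD libraries 1 to 5, at 21.3, 24.8, 26.4, 31.5 and 35.9 FPKM in WDD libraries and at 38.2, 33.0, 44.8, 36.5 and 45.2 FPKM in control libraries. In COPD libraries 1 to 4 it was below every WDD and control library. As deposited it was lower in COPD than in control lungs (-1.08 ± 0.26, adjusted p = 0.00126, and -1.39 ± 0.15 without COPD library 5), and WDD against COPD did not pass (0.58 ± 0.26, adjusted p = 0.0583) until COPD library 5 (0.89 ± 0.15, adjusted p = 8.96e-05) or WDD library 1 (0.67, adjusted p = 0.0469) was left out. After scaling neither passed with all libraries (-0.18 ± 0.31 and -0.04 ± 0.31). Both passed after scaling without COPD libraries 1 and 5, at -0.70 ± 0.17 and 0.48 ± 0.17.

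Hspa9, the mitochondrial HSP70 mortalin, was below the control range in both other groups. It was at 19.7, 10.5, 10.0, 15.4 and 24.6 FPKM in COPD libraries 1 to 5, at 14.8, 14.3, 12.6, 15.6 and 14 FPKM in WDD libraries and at 25.2, 26.1, 31.5, 32.0 and 39.7 FPKM in control libraries. It was lower in WDD than in control lungs by both sets of values (-1.05 ± 0.21, adjusted p = 0.001, and -0.77 ± 0.26, adjusted p = 0.0332). In COPD against control it passed as deposited (-0.96 ± 0.21, adjusted p = 0.000522) but not after scaling (-0.07 ± 0.26), where it was -0.57 (adjusted p = 0.00599) without COPD libraries 1 and 5. The ratio of Hspa5 to Hspa9 FPKM was 5.01 to 18.4 in COPD, 8.98 to 12 in WDD and 4.21 to 8.40 in control libraries, and the WDD libraries did not overlap with the controls.

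The mitochondrial chaperonin pair parted, although their genes are neighbours and share the promoter stretch shown above. Hspe1, which encodes the lid HSP10, was at 154, 247, 208, 162 and 218 FPKM in COPD libraries 1 to 5, at 186, 176, 166, 226 and 244 FPKM in WDD libraries and at 178, 125, 120.5, 93.6 and 113 FPKM in control libraries. The control library 1 reached into the range of the other groups. Hspd1, which encodes the chamber HSP60, was at 40.6, 32.7, 28.6, 29.5 and 36.5 FPKM in COPD libraries, at 40.8, 43.8, 42.5, 44.3 and 48.4 FPKM in WDD libraries and at 57.2, 49.9, 62.5, 58.7 and 61.8 FPKM in control libraries, with no overlap between groups.

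Hspe1 was higher in COPD than in control lungs by both sets of values (0.65 ± 0.18 as deposited, adjusted p = 0.00405, and 1.58 ± 0.18 after scaling, adjusted p = 2.35e-06). It was also higher in WDD than in control lungs (0.67 ± 0.18, adjusted p = 0.00853, and 0.95 ± 0.18, adjusted p = 0.00112). Hspd1 was lower as deposited in COPD against control (-0.78 ± 0.12, adjusted p = 2.20e-05) and in WDD against control (-0.39 ± 0.12, adjusted p = 0.0179), and passed in neither after scaling (0.13 ± 0.16 and -0.12 ± 0.16). The call in WDD against control was lost without control library 3 (-0.36, adjusted p = 0.0504). Within a library the ratio of Hspe1 to Hspd1 FPKM was 3.79, 7.54, 7.28, 5.48 and 5.98 in COPD libraries 1 to 5, 4.56, 4.01, 3.91, 5.10 and 5.03 in WDD libraries and 3.12, 2.51, 1.93, 1.59 and 1.83 in control libraries. Every COPD and WDD library lay above every control library. HSP10 is a far shorter protein than HSP60. Of the 27 short housekeeping transcripts 12 were higher in COPD and 27 in WDD than in control lungs as deposited (medians 0.60 and 0.90). After scaling 27 were higher in both comparisons (medians 1.44 and 1.15). Hspd1 and Hspe1 both have processed pseudogene copies in mammals, so that counts can be divided between near-identical sequences.

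**Figure D4:**
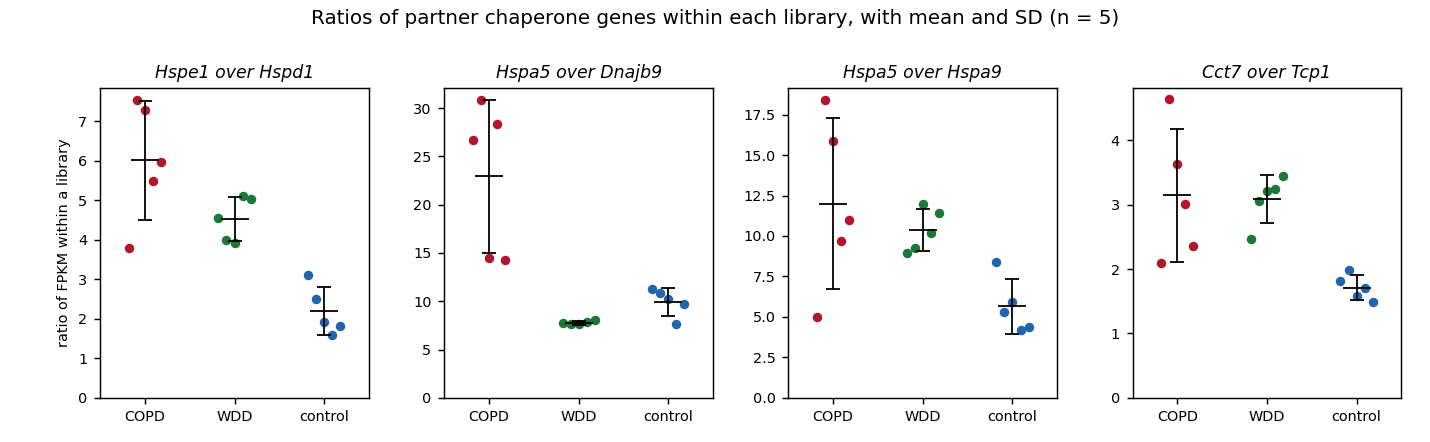
Points are FPKM ratios of gene pairs within each library for COPD, WDD and control, with the mean and SD (n = 5 each). Hspe1 over Hspd1 is 3.79 to 7.54 in COPD and 3.91 to 5.10 in WDD libraries, all above the control range of 1.59 to 3.12, while Hspa5 over Dnajb9 stands apart in COPD alone, at 14.3 to 30.8.

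Other mitochondrial chaperones and proteases, 9 of which were tested, were higher in 1 and lower in 5 cases in COPD against control lungs as deposited. After scaling these counts were 3 and 2. The shares of all genes were 8.23% and 66.4% as deposited and 30.0% and 32.6% after scaling. Lonp1, the matrix protease, was lower in COPD than in control lungs (-1.42 ± 0.13 as deposited and -0.54 ± 0.17 after scaling) and higher in WDD than in COPD lungs (1.13 ± 0.13 and 0.51 ± 0.17). Grpel2, an exchange factor for mortalin, was lower in COPD lungs by both (-1.22 ± 0.14 and -0.41 ± 0.15). Clpx, the unfoldase subunit of the matrix protease ClpXP, passed as deposited alone (-0.85 ± 0.14 and 0.03 ± 0.11), and its peptidase partner Clpp after scaling alone (0.37 ± 0.19 and 1.26 ± 0.16). In WDD against COPD 6 of the 9 were higher and 0 lower as deposited, beside 57.1% and 6.63% of all genes. After scaling the counts were 2 and 2, beside 23.3% and 21.4%.

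Small heat shock proteins were the role with the largest median rise in WDD against COPD lungs among the 11 roles, by deposited values (1.34, against 0.54 for all genes) and after scaling (0.73, against 0.03). As deposited 5 of the 6 tested were higher, and after scaling 4, beside 57.1% and 23.3% of all genes. Hspb11 is among the 6 and shares the family name but is a transport subunit. Without it 4 of 5 were higher as deposited and 3 after scaling, with medians of 1.20 and 0.60. Hspb2, a muscle small heat shock protein, was at 7.94, 21.8, 23.7, 7.51 and 12.4 FPKM in COPD libraries 1 to 5, at 47.9, 46.1, 38.5, 50.9 and 55.2 FPKM in WDD libraries and at 36.5, 41.5, 24.4, 28.1 and 24.7 FPKM in control libraries. The COPD libraries lay below all others. It was higher in WDD than in COPD lungs by both sets of values (1.77 ± 0.27, adjusted p = 4.81e-05, and 1.16 ± 0.24, adjusted p = 0.00136). In COPD against control it passed only as deposited (-1.15 ± 0.27, adjusted p = 0.00114, and -0.27 ± 0.24 after scaling).

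Hspb6, known as HSP20 and for its part in smooth muscle relaxation, was at 8.99, 15.6, 18.2, 13.1 and 6.92 FPKM in COPD libraries 1 to 5, at 29.2, 31.9, 31.3, 41.3 and 42.3 FPKM in WDD libraries and at 26.6, 28.7, 25.1, 28.6 and 19.6 FPKM in control libraries. None of the 3 groups overlapped with another. In WDD against COPD the log2 fold change was 1.47 ± 0.21 as deposited (adjusted p = 2.92e-05) and 0.86 ± 0.18 after scaling (adjusted p = 0.00102). In COPD against control it was -1.04 ± 0.21 (adjusted p = 0.000343) and -0.17 ± 0.18. In WDD against control it did not pass as deposited (0.43 ± 0.21, adjusted p = 0.123) and passed after scaling (0.70 ± 0.18, adjusted p = 0.00689). Hspb8, which works with BAG3 in removing damaged proteins, was at 11.7 ± 5.82 FPKM in COPD, 25.8 ± 2.27 in WDD and 26.3 ± 1.35 FPKM in control libraries, and was likewise higher in WDD than in COPD lungs by both (1.20 ± 0.24 and 0.60 ± 0.20). The scaled call for Hspb8 was lost without COPD libraries 1 and 5 (0.34, adjusted p = 0.0837). Hspb7, a small heat shock protein of muscle, was low, at 0.949 ± 0.737 FPKM in COPD, 2.59 ± 1.25 in WDD and 2.52 ± 0.784 FPKM in control libraries, and passed in both comparisons as deposited alone. Hspb7 reached 1 FPKM in 1 COPD, 5 WDD and 5 control libraries, so its low COPD values are in part set by the filter.

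Smooth muscle markers were lower in COPD lungs too, while cardiac and skeletal muscle markers went both ways. Of 6 smooth muscle markers 6 were lower in COPD than in control lungs as deposited and 5 after scaling, and their summed level was 162 to 240.2 FPKM in COPD, 252 to 589 in WDD and 446 to 810.3 FPKM in control libraries. In WDD against COPD 5 were higher as deposited, and 2 higher and 1 lower after scaling. Of 5 cardiac and skeletal muscle markers tested 2 were higher and 2 lower in COPD than in control lungs as deposited, and 3 were higher and 1 lower in WDD than in COPD lungs (0 and 1 after scaling, with a median of 0.04), with sums of 21.0 to 42.8, 15.6 to 36.4 and 18.8 to 36.3 FPKM in COPD, WDD and control libraries. Among all genes 66.4% were lower and 8.23% higher in COPD against control as deposited, and 32.6% and 30.0% after scaling. In WDD against COPD 57.1% were higher and 6.63% lower as deposited, and 23.3% and 21.4% after scaling. The part of muscle cells in the small heat shock protein result was not tested. Cryab, the small heat shock protein αB-crystallin and the next protein-coding neighbour of Hspb2, was at 39.1 ± 17.8 FPKM in COPD, 136 ± 19.6 in WDD and 115 ± 9.61 FPKM in control libraries, lower in COPD than in control lungs (-1.65 ± 0.24 as deposited and -0.73 ± 0.25 after scaling) and higher in WDD than in COPD lungs (1.88 ± 0.24 and 1.24 ± 0.25).

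Hspb1 differed from the other small heat shock proteins. It was at 276, 581, 382, 470.2 and 125 FPKM in COPD libraries 1 to 5, at 402 to 452 FPKM in WDD libraries and at 270.4 to 464 FPKM in control libraries. The COPD libraries spread beyond the other groups on both sides, and no comparison passed as deposited (-0.10 ± 0.31 in COPD against control). After scaling it was higher in COPD than in control lungs (0.83 ± 0.27, adjusted p = 0.0127). Without COPD libraries 1 and 5 it was higher as deposited too (0.44 ± 0.18, adjusted p = 0.041).

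Hspb11 encodes IFT25, a subunit of intraflagellar transport. It was at 3.38, 4.35, 6.74, 4.18 and 3.04 FPKM in COPD libraries 1 to 5, at 18.3, 11.5, 19.1, 17.6 and 18.6 FPKM in WDD libraries and at 13.7, 10.5, 12.5, 14 and 13.4 FPKM in control libraries. The COPD libraries lay below all others. It was lower in COPD than in control lungs (-1.40 ± 0.18 as deposited, adjusted p = 2.98e-06, and -0.60 ± 0.17 after scaling, adjusted p = 0.00516) and higher in WDD than in COPD lungs (1.77 ± 0.18, adjusted p = 1.11e-06, and 1.22 ± 0.17, adjusted p = 3.07e-05). Dnajb13, a J protein of the radial spokes of motile cilia, was also lowest in COPD libraries, at 1.88 to 3.95 FPKM in COPD, 6.45 to 8.34 in WDD and 7.87 to 13 FPKM in control libraries. Its log2 fold changes were -1.47 ± 0.18 and -0.71 ± 0.18 in COPD against control and 1.11 ± 0.18 and 0.60 ± 0.18 in WDD against COPD, as deposited and after scaling. Of 5 ciliated cell markers tested 3 were lower in COPD than in control lungs and 4 higher in WDD than in COPD lungs as deposited (2 and 2 after scaling). The shares of all genes were 66.4% and 57.1% (32.6% and 23.3% after scaling). The marker median in COPD against control was -0.75 as deposited and 0.08 after scaling, against -0.81 and -0.05 for all genes. In WDD against COPD it was 1.01 and 0.47, against 0.54 and 0.03. The summed marker level was 16.6 to 43.8 FPKM in COPD, 43.3 to 95.8 in WDD and 41.5 to 83.1 FPKM in control libraries. The part of ciliated cells in the results on Hspb11 and Dnajb13 was not tested.

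J proteins made up 40 of the 81 members and included the largest falls. Dnaja4, a class A partner of cytosolic HSP70, was at 10.6, 9.19, 10.1, 13.9 and 15.8 FPKM in COPD libraries 1 to 5, at 34.2, 30.9, 25.9, 30.9 and 31.7 FPKM in WDD libraries and at 50.8, 54.6, 57.7, 60.5 and 66.2 FPKM in control libraries. The 3 groups did not overlap, with WDD in between. It was lower in COPD than in control lungs (-2.21 ± 0.15 as deposited, adjusted p = 4.86e-09, and -1.32 ± 0.17 after scaling, adjusted p = 8.91e-06), higher in WDD than in COPD lungs (1.31 ± 0.15 and 0.70 ± 0.17) and lower in WDD than in control lungs (-0.89 ± 0.15 and -0.62 ± 0.17). All 3 passed by both sets of values.

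Dnajc16, a J protein of the endoplasmic reticulum membrane, was at 0.8, 0.76, 0.985, 1.16 and 0.387 FPKM in COPD libraries 1 to 5, at 1.69, 1.56, 2.41, 1.84 and 1.58 FPKM in WDD libraries and at 5.23, 7.0, 7.44, 7.94 and 7.68 FPKM in control libraries. Again the groups did not overlap. It was the member with the largest fall in WDD against control (-1.51 ± 0.15 as deposited, adjusted p = 1.64e-05, and -1.24 ± 0.15 after scaling, adjusted p = 7.86e-05), and in COPD against control it was at -2.15 ± 0.15 and -1.55 ± 0.15. Dnajc16 reached 1 FPKM in 1 COPD, 5 WDD and 5 control libraries, so its low COPD values are in part set by the filter. Dnajc13, the endosomal J protein RME-8, was lower in both groups too, at 4.65 to 6.41 FPKM in COPD, 6.08 to 8.17 in WDD and 11.3 to 17.9 FPKM in control libraries (-1.29 ± 0.15 in COPD and -0.98 ± 0.15 in WDD against control as deposited, -0.46 ± 0.15 and -0.71 ± 0.15 after scaling). Dnajc28, which lay near the filter, was at 0 to 0.572 FPKM in COPD, 0.526 to 1.10 in WDD and 1.55 to 2.57 FPKM in control libraries. It reached 1 FPKM in 0 COPD, 1 WDD and 5 control libraries, so its lower values against control are in part set by the filter. Dnajc5, the cysteine string protein of secretory vesicles, was at 12.7 ± 3.0 FPKM in COPD, 12.4 ± 1.48 in WDD and 26.8 ± 7.59 FPKM in control libraries, and was lower in WDD than in control lungs by both sets of values (-1.01 ± 0.21 and -0.74 ± 0.21).

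A few J proteins were higher. Dnajc2, which sits at the ribosome exit and serves nascent chains, was at 22.7, 24.2, 23.4, 21.6 and 18.4 FPKM in COPD libraries 1 to 5, at 20.0, 19.5, 24.9, 23.6 and 24.0 FPKM in WDD libraries and at 18.8, 14, 18.5, 15.4 and 18.6 FPKM in control libraries. COPD library 5 alone fell within the control range. It was higher in COPD than in control lungs (0.35 ± 0.13 as deposited, adjusted p = 0.0182, and 1.24 ± 0.13 after scaling, adjusted p = 1.03e-06) and in WDD than in control lungs (0.38 ± 0.13, adjusted p = 0.0273, and 0.63 ± 0.13, adjusted p = 0.00192). The deposited calls are near the threshold: the first was lost without control library 2 (0.29, adjusted p = 0.0542), and the second without WDD library 3, 4 or 5 or control library 2 or 4 (adjusted p = 0.0651 to 0.0746). Dnajc15, a J protein of the mitochondrial inner membrane, was at 10.9 ± 2.61 FPKM in COPD, 18.5 ± 2.34 in WDD and 12.4 ± 1.5 FPKM in control libraries, higher in WDD than in control lungs (0.54 ± 0.15 and 0.79 ± 0.14). Dnajc8, found with splicing complexes, was at 64.2 ± 16 FPKM in COPD, 77.0 ± 3.77 in WDD and 56.1 ± 3.54 FPKM in control libraries, also higher in WDD than in control lungs (0.45 ± 0.15 and 0.72 ± 0.10), a deposited call lost without WDD library 4 or 5 or control library 2, 3 or 5 (adjusted p = 0.05 to 0.0616).

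The J proteins of the classical heat shock response followed COPD library 5. Dnajb1, the main class B partner in protein disaggregation, was at 11.3, 18.3, 14.2, 11.9 and 31.9 FPKM in COPD libraries 1 to 5, at 25.8 to 27.9 FPKM in WDD libraries and at 25.8 to 32.6 FPKM in control libraries. COPD libraries 1 to 4 lay below all others and library 5 within the control range. As deposited it was lower in COPD than in control lungs (-0.83 ± 0.21, adjusted p = 0.00166, and -1.07 ± 0.13 without COPD library 5), and after scaling it did not pass (0.05 ± 0.23). Dnaja1 was at 86.2, 121, 111, 100 and 218 FPKM in COPD libraries 1 to 5, at 102 to 148 FPKM in WDD libraries and at 76.1 to 137 FPKM in control libraries, and passed only after scaling in COPD against control (1.13 ± 0.24, adjusted p = 0.000872). Dnajb6 did not pass in COPD against control with all libraries (-0.34 ± 0.24) and was lower as deposited without COPD library 5 (-0.65 ± 0.10, adjusted p = 3.12e-05). By class as deposited, 3 of 4 class A, 8 of 11 class B and 12 of 25 class C genes were lower in COPD than in control lungs and 0, 0 and 1 higher, and after scaling 1, 1 and 4 were lower and 1, 2 and 12 higher. Of all genes 66.4% were lower and 8.23% higher as deposited, and 32.6% and 30.0% after scaling.

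The cytosolic chaperonin, a double ring of 8 kinds of subunit that folds actin and tubulin, was read from 9 genes. As deposited 5 were lower in COPD than in control lungs, beside 66.4% of all genes. After scaling 7 were higher and 0 lower, beside 30.0% and 32.6% of all genes, with a median of 0.57 against -0.05. Cct5 was at 80.9 ± 11.9 FPKM in COPD, 126 ± 7.49 in WDD and 117 ± 6.52 FPKM in control libraries (-0.54 ± 0.12 as deposited, adjusted p = 0.000544, and 0.38 ± 0.14 after scaling, adjusted p = 0.0279, in COPD against control). Cct8 turned the same way (-0.34 ± 0.12 and 0.57 ± 0.10), its deposited call being lost without control library 5 (-0.29, adjusted p = 0.0573). Cct2 passed only after scaling (-0.27 ± 0.15 and 0.65 ± 0.11), and as deposited only without COPD library 2 (-0.36, adjusted p = 0.0349). Without COPD libraries 1 and 5 the scaled call for Cct5 was lost (0.14, adjusted p = 0.19).

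Tcp1, subunit 1 of the complex, was below the control range in both other groups. It was at 22.6, 18.2, 17.7, 18.8 and 28.9 FPKM in COPD libraries 1 to 5, at 29.8, 25.4, 22.8, 24.5 and 24.1 FPKM in WDD libraries and at 41.0, 34.1, 39.6, 37.0 and 46.4 FPKM in control libraries. It was lower as deposited in COPD (-0.88 ± 0.14, adjusted p = 3.50e-05) and in WDD against control lungs (-0.62 ± 0.14, adjusted p = 0.00287), though not after scaling (0.01 ± 0.18 and -0.35 ± 0.18). Cct7 was at 64.3 ± 14, 77.4 ± 3.91 and 67.3 ± 4.86 FPKM in COPD, WDD and control libraries. The ratio of Cct7 to Tcp1 FPKM was 2.09 to 4.65 in COPD and 2.47 to 3.44 in WDD libraries, all above the 1.49 to 1.99 of the control libraries. Cct6b, a paralog of Cct6a known from testis, was at 0.649 ± 0.686 FPKM in COPD, 2.69 ± 0.978 in WDD and 2.22 ± 0.464 FPKM in control libraries and was higher in WDD than in COPD lungs by both sets of values (1.21 ± 0.24 and 0.92 ± 0.27). Cct6b reached 1 FPKM in 1 COPD, 5 WDD and 5 control libraries, so its low COPD values are in part set by the filter. Of 4 testis markers 0 passed the filter, and reads shared with Cct6a are uncertain.

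Most prefoldin subunits, which hand actin and tubulin to the chaperonin, were higher in COPD and WDD than in control lungs. Of 9 prefoldin and helper genes 5 were higher and 3 lower in COPD than in control lungs as deposited (6 and 0 after scaling). The shares of all genes there were 8.23% and 66.4% (30.0% and 32.6% after scaling). In WDD against control lungs 6 were higher and 1 lower (7 and 0 after scaling), beside 6.35% and 31.0% of all genes (15.7% and 17.2%). Pfdn2 was at 43.2 ± 9.36 FPKM in COPD, 34.2 ± 4.70 in WDD and 15.7 ± 4.03 FPKM in control libraries (1.41 ± 0.18 in COPD and 1.10 ± 0.18 in WDD against control as deposited). Pfdn5 was at 157 ± 40.7, 247 ± 14.7 and 111 ± 21.0 FPKM in COPD, WDD and control libraries (0.47 ± 0.17 and 1.16 ± 0.17). The phosducin-like helpers Pdcl and Pdcl3 were lower as deposited in COPD against control (-1.03 ± 0.14 and -0.61 ± 0.14) and did not pass after scaling. In WDD against COPD 5 of the 9 were higher and 0 lower as deposited, beside 57.1% and 6.63% of all genes. After scaling the counts were 0 and 3, beside 23.3% and 21.4%. The prefoldin subunits are short proteins. The list median in COPD against control was 0.47 as deposited and 1.39 after scaling, against 0.60 and 1.44 for short housekeeping transcripts. In WDD against control it was 0.80 and 1.05, against 0.90 and 1.15. The part of length in this result was not tested.

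BAG proteins, the exchange factors that carry a BAG domain, moved apart from each other. Bag1, which also binds BCL2, was at 81, 114, 114, 76.4 and 127 FPKM in COPD libraries 1 to 5, at 87.3, 93.4, 84.6, 96.8 and 88.4 FPKM in WDD libraries and at 70.3, 65.0, 55.2, 55.3 and 56.8 FPKM in control libraries. All COPD and WDD libraries lay above all control libraries. It was higher in COPD than in control lungs (0.73 ± 0.15 as deposited, adjusted p = 0.000287, and 1.65 ± 0.15 after scaling, adjusted p = 2.38e-07) and in WDD than in control lungs (0.57 ± 0.15, adjusted p = 0.00598, and 0.84 ± 0.15, adjusted p = 0.000685). Bag4, the silencer of death domains on tumour necrosis factor receptors, was at 1.06, 1.30, 0.856, 0.523 and 1.22 FPKM in COPD libraries 1 to 5, at 1.64, 1.52, 1.74, 1.52 and 0.754 FPKM in WDD libraries and at 2.17, 4.60, 4.44, 3.05 and 4.24 FPKM in control libraries. It was lower in COPD (-1.22 ± 0.18 as deposited and -0.63 ± 0.19 after scaling) and in WDD than in control lungs (-0.93 ± 0.18 and -0.70 ± 0.19), without overlap.

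Bag3, the heat-inducible partner of HSPB8, was at 8.65, 10.2, 12, 9.01 and 15.7 FPKM in COPD libraries 1 to 5, at 20.5 to 22.8 FPKM in WDD libraries and at 17.1 to 26.4 FPKM in control libraries. The COPD libraries lay below all others, and it passed as deposited (-0.90 ± 0.16 in COPD against control, adjusted p = 7.29e-05, and 0.92 ± 0.16 in WDD against COPD, adjusted p = 0.000123) but not after scaling (-0.03 ± 0.18 and 0.31 ± 0.18). In WDD against COPD the scaled value passed without COPD libraries 1 and 5 (0.53, adjusted p = 0.00508). Hspbp1, an exchange factor of another fold, was at 27.2 ± 7.44, 28.6 ± 6.20 and 26.9 ± 3.63 FPKM in COPD, WDD and control libraries, and passed in COPD against control only after scaling (0.89 ± 0.17).

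**Figure D5:**
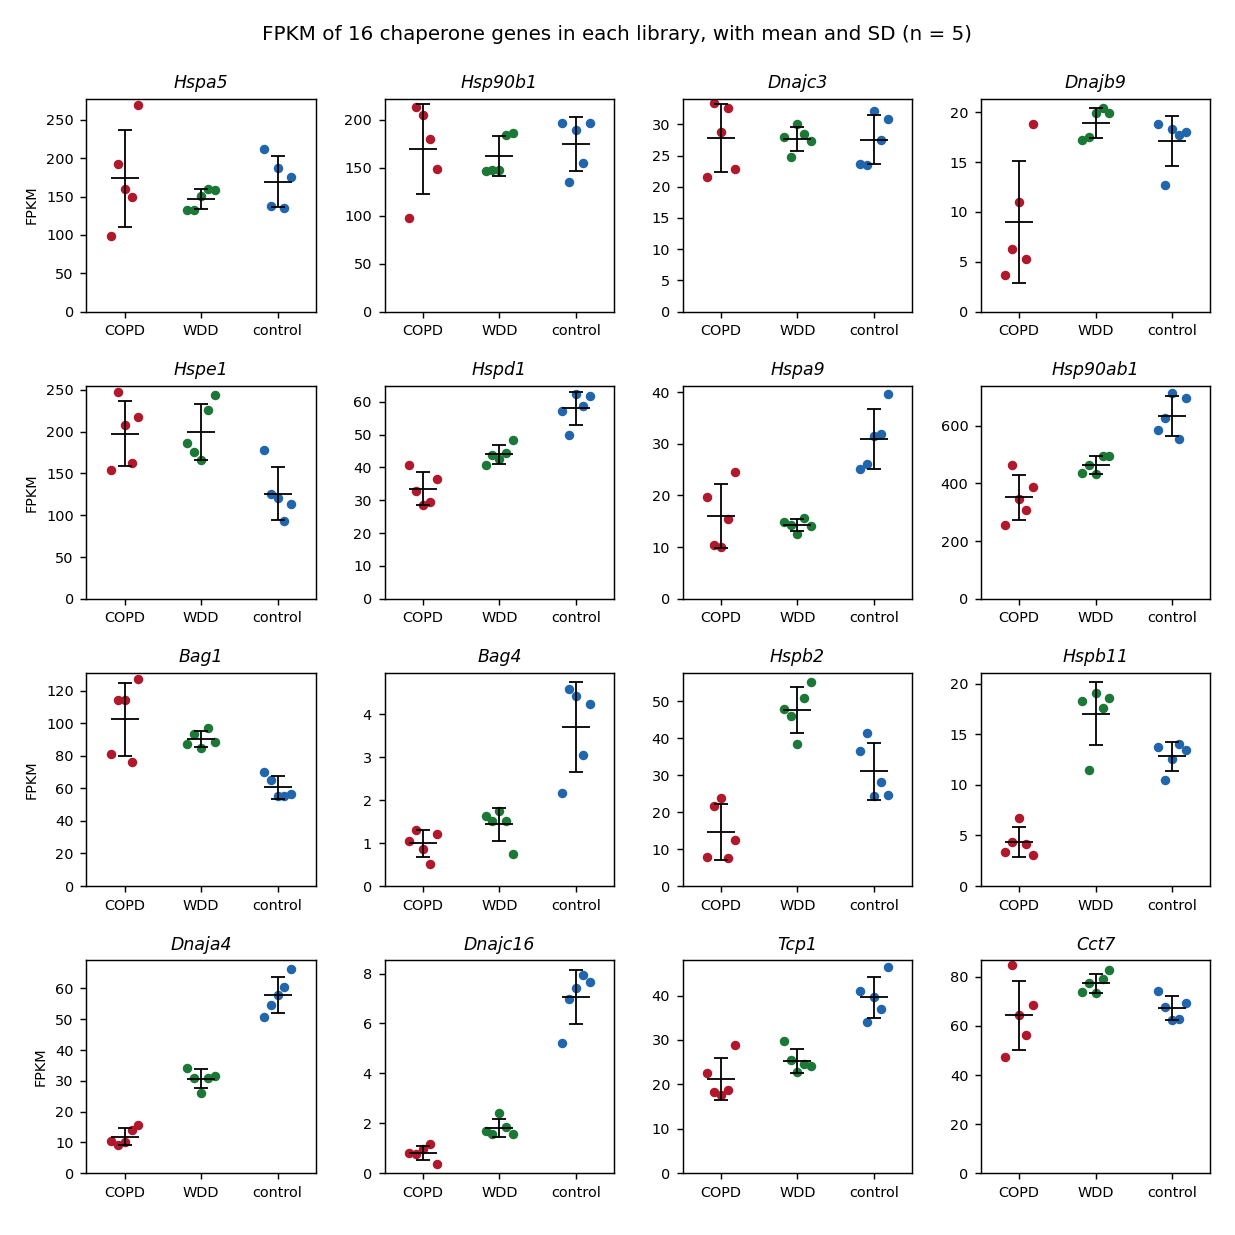
Points are FPKM as deposited in each library for 16 genes, with the mean and SD (n = 5 per group). Dnaja4, Dnajc16 and Bag4 are lower in COPD than in control libraries, Bag1 is higher, Hspb2 and Hspb11 are higher in WDD than in COPD libraries, and Hspa5, Hsp90b1 and Dnajc3 overlap between all groups.

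Co-chaperones outside the naming rule gave the same split by scaling. Of 14 partners of HSP90 and HSP70 tested, Cryab among them, 1 was higher and 8 lower in COPD than in control lungs as deposited. After scaling these counts were 8 and 1. The shares of all genes were 8.23% and 66.4% as deposited and 30.0% and 32.6% after scaling. In WDD against COPD lungs 9 were higher and 0 lower as deposited (1 and 4 after scaling), beside 57.1% and 6.63% of all genes (23.3% and 21.4%). Sugt1, an HSP90 partner in immune receptor assembly and cell division, was at 32.3 ± 9.57 FPKM in COPD, 36.0 ± 2.46 in WDD and 18.7 ± 3.44 FPKM in control libraries and was higher in COPD (0.73 ± 0.18 as deposited and 1.62 ± 0.13 after scaling) and in WDD than in control lungs (0.92 ± 0.18 and 1.18 ± 0.13). Ahsa1, the activator of the HSP90 ATPase, passed only after scaling in COPD against control (0.10 ± 0.15 and 1.01 ± 0.12). Stub1, the ubiquitin ligase CHIP that marks chaperone clients for removal, passed only as deposited (-1.13 ± 0.14 and -0.24 ± 0.12).

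Cell type markers differed widely between the groups and stand beside all of the above. Of 8 neutrophil markers 8 were higher in COPD than in control lungs, with summed levels of 11213 to 43231 FPKM in COPD, 107 to 465 in WDD and 65.5 to 109 FPKM in control libraries. As deposited, 6 of 6 alveolar type 1, 4 of 6 alveolar type 2, 2 of 3 club cell, 4 of 4 endothelial and 4 of 5 T cell markers tested were lower in COPD than in control lungs, and 5, 3, 2, 3 and 4 of them after scaling, when 2 of the alveolar type 2 markers were higher. The shares of all genes in this comparison were 66.4% lower and 8.23% higher as deposited, and 32.6% and 30.0% after scaling. The surfactant and other type 2 markers, present in every library, summed to 3019 to 14233 FPKM in COPD, 19246 to 22557 in WDD and 15815 to 24259 FPKM in control libraries. The part of these cells in the chaperone results was not tested.

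The 11 genes below the filter were Hspa1l, Hspb3, Hspb9, Dnajb7, Dnajb8, Dnajc5b, Dnajc5g, Dnajc6, Bag5 and both rows named Cct8l1. Hspb3, Dnajb8 and 1 row of Cct8l1 were at 0 in every library. Just inside the filter lay Dnajc28, which reached 1 FPKM in 6 libraries, and Hspa4l, which did so in 7. Just outside lay Hspb9, with 2 libraries at 1 FPKM or more and a highest value of 1.58 FPKM. Dnajc28 and Hspa4l reached 1 FPKM mainly in control libraries, and they stand among the genes listed as lower with that limit. Cct6b, Dnajc16 and Hspb7 reached it in 1 COPD library each and Hspa12a in 2, so the limit holds for their low COPD values too.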

How the data were processed

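RNA-seq of rat lung was analysed in 15 libraries, 5 each of COPD, WDD and control. TRIzol was used to extract RNA, and the NEBNext Ultra RNA kit made libraries from 1 ug, per the labels' protocols. Per the submitters' processing notes, the authors used cutadapt, HISAT2, StringTie and the rat build Rnor_6.0. Tool versions, annotation release and strand use were not given in the sources used here, so antisense or overlapping genes cannot be told apart. The deposited values are FPKM computed by the authors, scaled to gene length and mapped fragments, so that a few abundant transcripts lower all others. Read totals were not used here, depth is known only relative to other libraries, and no counting intervals are given.

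The genes tested, 13172 of 22250, reached an FPKM of 1 in 5 or more libraries. Log2(FPKM + 1) of all 15 libraries entered 1 linear model with a mean per group (limma 3.58.1, trended eBayes; R 4.3.3). Two-sided p-values received the Benjamini-Hochberg adjustment across the 13172 genes in each comparison, and a call needs an adjusted p under 0.05. The fit was tested on simulated data. Scaled values were divided by each library's median ratio to the geometric mean over the tested genes. Tables and figures used Python 3.11.15, numpy 2.4.6, pandas 2.3.3 and matplotlib 3.10.9. Genes are named by the symbols in the table, and gene coordinates come only from the RefSeq promoter table, whose build differs from that of the FPKM. Protein sequences were not used here.

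Members and lists were chosen with earlier results of these data known. Named members are, in each comparison, the 6 called with the largest rise and the 6 with the largest fall, and a core of 24 genes, of which 23 were tested, 39 in all; other members are named where a count or library singles them out, after their values were seen. From each list of folding genes, up to 2 of lowest p in a comparison are named. Housekeeping lists were written by hand. Alternatives were the pseudocount, the filter, 2 other scalings, fits of 2 groups only, the replicate block and leaving out libraries. Leaving out COPD libraries 1 and 5 together was added after seeing the data. Whether replicate numbers pair the groups is not known. In 1 of 15 same-numbered pairs of libraries the deviations from the group means correlated above 0.1, which cannot settle it.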

Additional observations from a re-analysis of the deposited data

Results flagged for a closer look

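Of 117 sets of 5 libraries examined, 39 named genes in 3 groups, 5 were flagged by Dixon's test. Each flagged set held a library whose distance from the other 4 was large for the range of its group. By chance about 1 in 20 of the sets examined would be flagged, so that 5 flags in 117 sets are about what chance gives. Hsph1 was at 43.6 FPKM in COPD library 5, where the other COPD libraries were at 12.9 to 16.2 FPKM. Bag4 was at 0.754 FPKM in WDD library 5, where the others were at 1.52 to 1.74 FPKM. Hspb11 was at 11.5 FPKM in WDD library 2, where the others were at 17.6 to 19.1 FPKM. Dnajc5 was at 14.1 FPKM in control library 1, where the others were at 26.9 to 33.6 FPKM and the COPD libraries at 9.86 to 17.3 FPKM. Dnajb9 was at 12.7 FPKM in control library 2, where the others were at 17.7 to 18.8 FPKM.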

How the results depend on the processing

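The direction of change depended on the scaling. Median-of-ratios scaling gave 3947 genes higher and 4296 lower in COPD against control (members 35 and 11), 3075 and 2819 in WDD against COPD (members 9 and 21) and 2070 and 2262 in WDD against control (members 15 and 9). Scaling to the FPKM sum without mitochondrial genes gave 5 members higher in COPD against control, 4544 genes higher and 1511 lower in WDD against COPD (members 16 and 5) and 3 members higher in WDD against control. A mean FPKM of at least 5, a filter that changes the set of genes tested, left 2555 genes lower in WDD against control. Fits of only the 2 groups compared gave 1642 genes and 12 members higher in WDD against control. Without COPD libraries 1 and 5 together, chosen after seeing the data, 8 members were higher in COPD against control, and 1332 genes and 1 member, Dnajc22, lower in WDD against COPD. With median-of-ratios scaling as well, there were 4355 genes higher and 4609 lower in COPD against control (members 34 and 19) and 3268 and 3221 in WDD against COPD (members 19 and 24). Leaving out 1 library in turn gave 954 to 1335 genes higher and 8392 to 8983 lower in COPD against control (members 2 to 5 and 46 to 53), 6814 to 7754 and 797 to 1082 in WDD against COPD (members 34 to 47 and 0), and 591 to 965 and 3451 to 4087 in WDD against control (members 3 to 6 and 12 to 17). The causes were not tested.

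With the replicate number as a block, 1046 genes were higher and 8701 lower in COPD against control (members 3 and 48), 7327 and 854 in WDD against COPD (members 38 and 0) and 740 and 3897 in WDD against control (members 4 and 17). Whether the numbers pair the libraries is not known, and the correlations, above 0.1 in 1 of 15 same-numbered pairs, cannot settle it.

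By median-of-ratios scaling, log2 fold changes that changed sign in COPD against control were 0.65 for Cct2, 0.38 for Cct5, 0.57 for Cct8, 0.05 for Dnajb1, 0.62 for Dnajb11, 0.67 for Dnajc15, 0.49 for Hsf1, 0.26 for Hsf2, 0.52 for Hsp90aa1, 0.06 for Hsp90ab1, 0.84 for Hsp90b1, 0.53 for Hspa1b, 0.91 for Hspa5, 0.78 for Hspa8, 0.83 for Hspb1, 0.13 for Hspd1 and 0.01 for Tcp1. By median-of-ratios scaling, log2 fold changes that changed sign in WDD against COPD were -0.07 for Bag4, -0.31 for Cct2, -0.42 for Cct8, -0.59 for Dnaja1, -0.31 for Dnajb11, -0.25 for Dnajc13, -0.60 for Dnajc2, -0.35 for Dnajc8, -0.29 for Hsf1, -0.02 for Hsf2, -0.34 for Hsp90aa1, -0.22 for Hsp90ab1, -0.42 for Hspa8, -0.25 for Hspb1, -0.25 for Hspd1, -0.63 for Hspe1, -0.04 for Hsph1 and -0.37 for Tcp1. By median-of-ratios scaling, log2 fold changes that changed sign in WDD against control were 0.15 for Cct8, 0.14 for Dnajb1, 0.20 for Hsf1, 0.18 for Hsp90aa1, 0.18 for Hsp90b1 and 0.09 for Hspa5. By scaling to the sum without mitochondrial genes, log2 fold changes that changed sign in COPD against control were 0.01 for Dnajc15, 0.12 for Hsp90b1, 0.19 for Hspa5, 0.06 for Hspa8 and 0.11 for Hspb1. By scaling to the sum without mitochondrial genes, log2 fold changes that changed sign in WDD against COPD were -0.02 for Cct2, -0.14 for Cct8, -0.30 for Dnaja1, -0.03 for Dnajb11, -0.33 for Dnajc2, -0.06 for Dnajc8, -0.01 for Hsf1, -0.12 for Hsp90aa1, -0.13 for Hspa8, -0.34 for Hspe1 and -0.09 for Tcp1. By scaling to the sum without mitochondrial genes, log2 fold changes that changed sign in WDD against control were -0.13 for Bag3, -0.09 for Cct2, -0.05 for Cct5, -0.11 for Dnajb11, -0.13 for Hsf2 and -0.07 for Hspa8. With 1 library left out in turn, fold changes near 0 that changed sign in COPD against control ranged Dnaja1 from 0.00 to 0.33, Hsp90b1 from -0.18 to 0.10, Hspa5 from -0.19 to 0.17, Hspa8 from -0.27 to 0.04, Hspb1 from -0.31 to 0.25. With 1 library left out in turn, fold changes near 0 that changed sign in WDD against COPD ranged Dnaja1 from -0.06 to 0.27, Dnajc2 from -0.04 to 0.07, Dnajc5 from -0.09 to 0.10, Hsp90b1 from -0.20 to 0.08, Hspa5 from -0.35 to 0.01, Hspa9 from -0.22 to 0.08, Hspe1 from -0.06 to 0.11. With 1 library left out in turn, fold changes near 0 that changed sign in WDD against control ranged Bag3 from -0.05 to 0.10, Dnajb11 from -0.02 to 0.12, Hsf2 from -0.03 to 0.07, Hsp90aa1 from -0.13 to 0.08. For single named genes, 673 of the values under the other alternatives kept direction and side of the threshold, 42 no longer passed, 23 newly passed and 63 changed sign; with 1 library left out these numbers were 1066, 41, 15 and 48. Depth is known only in relative terms, so the counting error of low FPKM values is unknown.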
